A study of Homo sapiens with 3 samples.

Results

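The BCL2 family of apoptosis regulators was examined in OVCAR3 cells, a widely used human line from a high-grade serous carcinoma of the ovary. The family was represented by 10 genes taken by symbol from the 36601 genes of the deposited count tables. They are the guardians BCL2, BCL2L1 and MCL1, the effectors BAX and BAK1, and the BH3-only genes BBC3, PMAIP1, BCL2L11, BID and BAD. All 10 symbols were found. The cells had been treated for 48 hours with DMSO (the vehicle of both drugs), with 50 μM NSC23766 (RAC1i), or with 50 μM NSC23766 and 5 μM GSK126 together (Combo). NSC23766 blocks activation of the small GTPase RAC1, and GSK126 inhibits the histone methyltransferase EZH2. Each condition was 1 droplet library of 3′ ends from a single cell line, so the treatment and the library cannot be told apart and no test between conditions was possible. A library of GSK126 alone was not analysed here, so the part of GSK126 was seen only on top of NSC23766.

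Apoptosis through the mitochondrial pathway is decided at the outer mitochondrial membrane. When active, BAX and BAK1 form pores there, cytochrome c is released and caspases are activated. BCL2, BCL-XL (the main product of BCL2L1) and MCL1 hold the effectors in check, and the BH3-only proteins relieve that check or activate the effectors directly. Much of this control acts on the proteins, through binding, cleavage, phosphorylation and turnover, and mRNA counts do not show it.

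The cell filters kept 7531 of 10071 DMSO barcodes, 10215 of 11772 RAC1i barcodes and 8239 of 9757 Combo barcodes, which held between 199063947 and 234969742 UMIs (unique molecular identifiers, 1 per captured mRNA molecule). The median cell of DMSO, RAC1i and Combo held 26750, 20989 and 24953 UMIs, of which 5.60%, 1.66% and 1.58% were mitochondrial. Any pair of libraries shared between 15 and 23 kept barcodes. All 11 epithelial and serous markers, among them PAX8, WT1 and EPCAM, were at or above 1 CPM (UMIs per 1e6 UMIs of the kept cells) in every library, with a sum of 4080, 2175 and 2421 CPM. None of 5 leukocyte markers reached 1 CPM, and their sum lay between 1.71 and 1.80 CPM. COL1A1 was the only one of 5 fibroblast markers at 1 CPM or more (sum 5.69 to 5.91 CPM). The sum of 3 endothelial markers lay between 1.22 and 1.88 CPM, with VWF and CDH5 below 1 CPM throughout. The 2 erythroid markers summed to 0.0553, 1.28 and 2.19 CPM, nearly all of it HBA1, with HBB at 0 in DMSO and Combo. The part of these differences in the results was not tested. RAC1, the target of NSC23766, was at 462, 590 and 577 CPM in DMSO, RAC1i and Combo, and EZH2, the target of GSK126, at 32.1, 12.4 and 15.2 CPM. Both drugs act on the protein, so these levels do not check the labels.

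The family covered a wide range of levels. BID gave the most UMIs in every library (159 CPM in DMSO, 202 in RAC1i and 208 in Combo) and BCL2 the fewest (0.814, 0.949 and 0.761 CPM). In DMSO the order was BID, MCL1, BAD, BCL2L1, BAX, BCL2L11, PMAIP1, BAK1, BBC3 and BCL2, with no overlap between the intervals of neighbours. BAX stood above BAK1 in DMSO and below it in both treated libraries. PMAIP1 and BCL2L11 followed BAX in both treated libraries, and their intervals overlapped there. BAD stood above MCL1 in Combo and below it in the other two libraries. The order is one of captured 3′ ends, counted once per molecule and not divided by length, so it also depends on how well each 3′ end is captured. All intervals are exact at 95% and express counting error alone; differences between cultures are not in them.

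**Figure D1:**
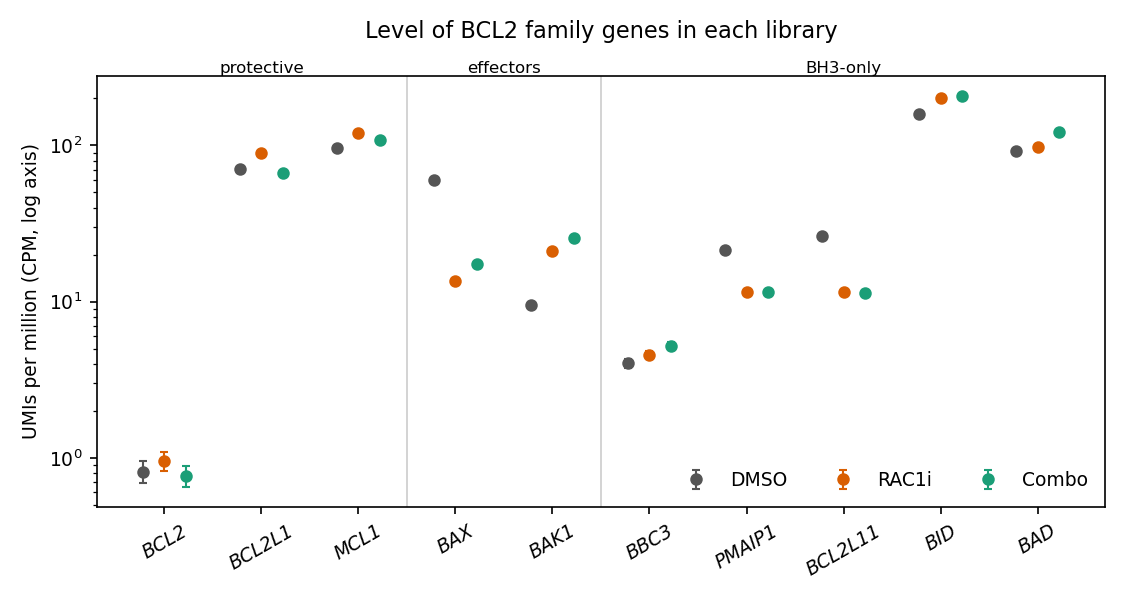
Level of each of the 10 members (CPM, log axis) in the DMSO, RAC1i and Combo libraries, with exact 95% Poisson intervals that cover counting error only. BAX was at 59.7 CPM in DMSO and at 13.5 and 17.5 CPM in the treated libraries, while BAK1 was at 9.54, 21.0 and 25.4 CPM.

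A difference was counted when it was at least 1.5-fold and the higher of both libraries held at least 1 CPM. BCL2 stayed below that minimum in all libraries, which left 9 members. In RAC1i over DMSO, BAK1 was higher and BAX, PMAIP1 and BCL2L11 were lower past this fold, so 1 of 9 members was higher and 3 of 9 were lower. Among all 14509 genes above the minimum, 24.1% were higher and 41.3% were lower. Under the mean over cells of CPM, which gives shallow cells as much weight as deep ones, 4 of 10 members (BAK1, BCL2, MCL1 and BBC3) were higher and 2 were lower, beside 29.0% and 37.0% of all genes. In Combo over DMSO the same 1 and 3 members passed the fold, beside 22.8% and 40.1% of 14441 genes, and under the mean over cells 2 of 10 members (BAK1 and BBC3) were higher and 2 lower, beside 28.5% and 35.4%. Both comparisons use the 1 DMSO library. In Combo over RAC1i 0 members passed in either direction, where 0.85% and 1.26% of 13416 genes did (1.47% and 1.37% of 14196 genes under the mean over cells of CPM, with 0 members in either direction). The median log2 ratio of the 9 members was 0.17 for RAC1i over DMSO and 0.16 for Combo over DMSO, beside −0.29 and −0.27 for all genes. Scaling by DESeq2 size factors moved the all-gene median by 0.13 in both comparisons, and the mean over cells of CPM by 0.13 and 0.14, so a log2 ratio within that distance of 0 has no firm direction.

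**Figure D2:**
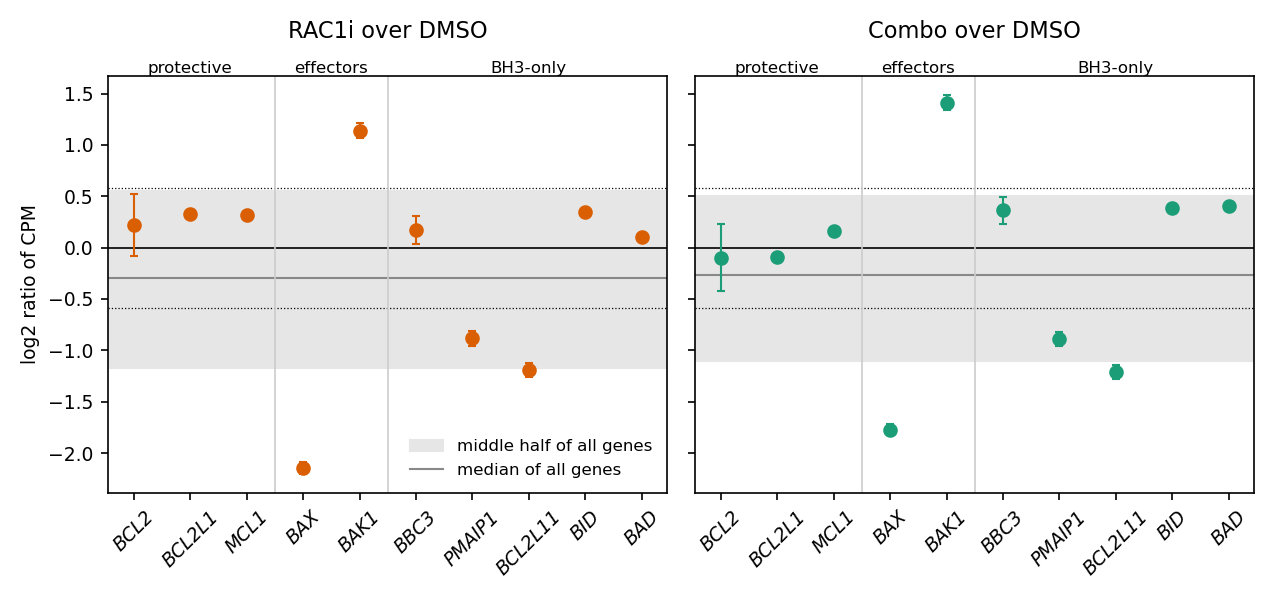
Log2 ratio of CPM for each member in RAC1i over DMSO and in Combo over DMSO, with exact 95% intervals that cover counting error only. BAX (−2.14 and −1.77) and BAK1 (1.14 and 1.41) lie on opposite sides of 0 in both comparisons.

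The effectors stood on opposite sides of their DMSO level in both treated libraries. BAX (ENSG00000087088, chr19:48954815-48961798, plus strand, GRCh38) encodes a pore former that sits mostly in the cytosol until it is activated. It gave 11890 UMIs in DMSO, 3174 in RAC1i and 3718 in Combo, or 59.7, 13.5 and 17.5 CPM. DMSO was the high library and both treated libraries were low. The RAC1i level was 0.226 times that of DMSO (95% interval 0.217 to 0.235) and the Combo level 0.293 times (0.282 to 0.304). The log2 ratio of −2.14 in RAC1i over DMSO stood at the 8.15th percentile of all genes.

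BAK1 (ENSG00000030110, chr6:33572547-33580293, minus strand) encodes the effector that is held in the outer membrane from the start. It gave 1899, 4941 and 5408 UMIs, or 9.54 CPM in DMSO, 21.0 in RAC1i and 25.4 in Combo. Both treated libraries were above DMSO. The ratio to DMSO was 2.20 (2.09 to 2.33) in RAC1i and 2.66 (2.53 to 2.81) in Combo, at the 85.8th and 90.0th percentile of all genes. BAX made up 86.2% of the UMIs of both effectors in DMSO, and 39.1% and 40.7% in RAC1i and Combo. Together both effectors were at 69.3, 34.5 and 42.9 CPM.

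The 250 bases before the RefSeq start sites of BAX and BAK1, which stood on opposite sides of DMSO, and of PMAIP1, a BH3-only gene that was lower in the treated libraries, are shown 5′ to 3′ on the strand of the gene. They come from RefSeq on GRCh38.p14, whose start of BAX lies inside the GENCODE gene given above, as does that of BAK1. Capitals mark the E box CACGTG and the cyclic AMP response element core TGACGT, searched on both strands, which reads ACGTCA where it lies on the other strand.
BAX: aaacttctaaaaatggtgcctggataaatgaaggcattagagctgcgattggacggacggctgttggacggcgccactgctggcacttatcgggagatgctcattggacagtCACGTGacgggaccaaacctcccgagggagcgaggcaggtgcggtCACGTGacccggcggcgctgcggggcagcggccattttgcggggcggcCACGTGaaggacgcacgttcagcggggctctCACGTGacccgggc
BAK1: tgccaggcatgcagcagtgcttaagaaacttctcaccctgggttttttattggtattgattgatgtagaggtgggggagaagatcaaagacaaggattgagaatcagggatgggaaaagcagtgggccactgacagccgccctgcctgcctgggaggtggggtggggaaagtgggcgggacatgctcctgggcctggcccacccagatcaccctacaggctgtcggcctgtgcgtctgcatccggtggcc
PMAIP1: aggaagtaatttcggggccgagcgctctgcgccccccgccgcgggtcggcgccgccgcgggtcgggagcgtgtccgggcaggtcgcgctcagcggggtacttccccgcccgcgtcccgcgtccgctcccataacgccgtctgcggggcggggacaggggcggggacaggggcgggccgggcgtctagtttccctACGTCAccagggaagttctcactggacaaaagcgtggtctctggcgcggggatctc
The BAX stretch (chr19:48954625-48954874) held 4 E boxes, which start 138, 93, 45 and 14 bases before the start site, and 6.34% of 35116 promoters of the same length held at least 1. The BAK1 stretch (chr6:33580277-33580526) held neither capitalised motif. The PMAIP1 stretch (chr18:59899746-59899995) held 1 response element core, 56 to 51 bases before the start site, as did 7.10% of promoters. BBC3 also held an E box and BAD a response element core. The stretch of BCL2L11, whose ratios to DMSO were below those of PMAIP1, held neither, nor did those of BCL2, BCL2L1 and BID. The GC box GGGCGG, not capitalised, was in all 3 stretches and in 42.6% of promoters, and in the PMAIP1 stretch it was found 4 times. The full element TGACGTCA, the C/EBP-ATF element TGATGNAA and the E2F letters TTTGGCGC and TTTCGCGC were in none of the 9 members found in the RefSeq table, and in 1.65%, 3.14%, 0.550% and 0.439% of promoters. MCL1 had no entry. A match of letters is a description and shows no binding.

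The guardians differed less than the effectors. MCL1 (ENSG00000143384, chr1:150560895-150579738, minus strand) encodes a short-lived protein that binds BAK1, BCL2L11 and PMAIP1 products. It was at 97.0 CPM in DMSO, 121 in RAC1i and 109 in Combo, a ratio of 1.25 (1.22 to 1.27) and 1.12 (1.10 to 1.14). RAC1i was the highest library and DMSO the lowest. Under the mean over cells of CPM the log2 ratios of MCL1 were 0.61 and 0.56, past 1.5-fold in RAC1i only. MCL1 shares 328 exon bases with ADAMTSL4-AS1 on the same strand, and UMIs from those bases cannot be told apart.

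BCL2L1 (ENSG00000171552, chr20:31664452-31723989, minus strand) was at 71.0, 89.2 and 66.6 CPM. Its splice forms encode the protective BCL-XL and the death-promoting BCL-XS, and counts per gene do not separate them. The ratio to DMSO was 1.26 (1.23 to 1.28) in RAC1i and 0.938 (0.916 to 0.960) in Combo. The Combo direction turned to slightly above DMSO under 1 of 10 alternative settings (DESeq2 size factors, log2 ratio 0.02). RAC1i was the highest library, and DMSO and Combo lay close together.

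BCL2 (ENSG00000171791, chr18:63123346-63320128, minus strand), the founding member of the family, gave 162, 223 and 162 UMIs. At 0.814 CPM in DMSO, 0.949 in RAC1i and 0.761 in Combo it was scarce in all 3 libraries. The RAC1i ratio was 1.17, and its interval of 0.948 to 1.44 includes 1, as did that of Combo (0.935, 0.748 to 1.17). Together the guardians were at 169, 211 and 176 CPM. MCL1 made up 57.5%, 57.3% and 61.8% of their UMIs and BCL2 under 1%.

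Among the BH3-only genes, BCL2L11 and PMAIP1 were lower in both treated libraries, and BID, BAD and BBC3 stayed within 1.5-fold of DMSO in summed UMIs. BCL2L11 (ENSG00000153094, chr2:111119378-111168444, plus strand) encodes BIM, which binds all guardians and can activate BAX and BAK1. It was at 26.3 CPM in DMSO, 11.5 in RAC1i and 11.4 in Combo, with DMSO the only high library. The ratio was 0.437 (0.417 to 0.458) in RAC1i and 0.433 (0.412 to 0.454) in Combo.

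PMAIP1 (ENSG00000141682, chr18:59899996-59904305, plus strand) encodes NOXA, which binds mainly MCL1. It was at 21.3 CPM in DMSO and at 11.5 CPM in each treated library. Again DMSO alone was high, with a ratio of 0.542 (0.517 to 0.569) in RAC1i and 0.540 (0.513 to 0.567) in Combo. Under the mean over cells of CPM the log2 ratio in RAC1i was −0.53, short of the 1.5-fold limit.

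BID (ENSG00000015475, chr22:17734138-17774770, minus strand), whose product is cleaved by caspase-8 and links death receptors to mitochondria, was at 159, 202 and 208 CPM. Both treated libraries were above DMSO, with ratios of 1.27 (1.26 to 1.29) and 1.31 (1.29 to 1.33). BAD (ENSG00000002330, chr11:64269830-64284704, minus strand), which is kept inactive by phosphorylation and 14-3-3 proteins, was at 91.8, 98.5 and 121 CPM. The RAC1i ratio was 1.07 (1.05 to 1.09), which turned to a log2 ratio of −0.12 under the mean over cells of CPM. The Combo ratio was 1.32 (1.30 to 1.35), a log2 ratio of 0.40. Under the 10 alternative settings the Combo log2 ratio of BAD ran from 0.13 to 0.52. Its lower end lies close to the limit for a firm direction given above. BBC3 (ENSG00000105327, chr19:47220822-47232766, minus strand), which encodes the p53 target PUMA, was low in every library at 4.02, 4.53 and 5.18 CPM. Its ratio was 1.13 (1.03 to 1.24) in RAC1i and 1.29 (1.17 to 1.41) in Combo. Under the mean over cells of CPM BBC3 was past 1.5-fold in both, with log2 ratios of 0.60 and 0.81. Its lowest log2 ratios among the 10 alternative settings were 0.00014 in RAC1i and 0.13 in Combo, so the RAC1i ratio has no firm direction.

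In sums over roles, the BH3-only genes were at 302 CPM in DMSO, 328 in RAC1i and 357 in Combo, and BID alone gave 52.5%, 61.6% and 58.2% of these UMIs. The UMIs of effectors over those of guardians, a ratio within a library that needs no scaling, were 0.410 (0.402 to 0.418) in DMSO, 0.164 (0.160 to 0.167) in RAC1i and 0.244 (0.238 to 0.249) in Combo. The order of the libraries was the same under every setting tried, though without MCL1 among the guardians the values were 0.965, 0.383 and 0.637. BH3-only UMIs over guardian UMIs were 1.79 (1.76 to 1.81), 1.55 (1.54 to 1.57) and 2.03 (2.00 to 2.05), so RAC1i was lowest for both ratios. The BH3-only ratio was not computed under the other settings, so its order of libraries was not checked. These are ratios of mRNA counts and give no balance of proteins.

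Combo and RAC1i, which differ by GSK126, were close for most members. In Combo over RAC1i the ratios of the 9 members above the minimum ran from 0.746 for BCL2L1 (0.730 to 0.762) to 1.29 for BAX (1.23 to 1.36). BAD (1.23, 1.21 to 1.25), BAK1 (1.21, 1.16 to 1.26) and BBC3 (1.14, 1.05 to 1.24) were higher in Combo, and MCL1 was lower (0.899, 0.883 to 0.915). The intervals of PMAIP1 (0.995, 0.942 to 1.05) and BCL2L11 (0.990, 0.937 to 1.05) include 1, and BID was at 1.03 (1.01 to 1.04). The ratios of all genes were narrowly spread here. BCL2L1 stood at the 3.83rd percentile, and BAX, BAD and BAK1 at the 95.2nd, 91.2nd and 89.2nd.

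To compare shares of cells, 5000 UMIs were drawn at random from each cell (thinning), and cells with fewer (806 for DMSO, 1015 for RAC1i, 885 for Combo) were not used. A BAX UMI was then found in 24.6% of DMSO cells (23.6 to 25.7), 6.17% of RAC1i cells (5.69 to 6.69) and 7.49% of Combo cells (6.90 to 8.12). Before thinning the shares were 68.4%, 23.8% and 30.3%. For BAK1 the thinned shares were 4.43% (3.95 to 4.95), 8.53% (7.97 to 9.12) and 10.1% (9.44 to 10.8), and the unthinned shares 20.7%, 31.1% and 38.4%. The effectors thus differed in the number of cells with a UMI in the same directions as in summed counts.

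BCL2L11 was detected in 11.6%, 5.78% and 6.17% of thinned cells (41.1%, 21.2% and 23.5% unthinned) and PMAIP1 in 9.86%, 5.12% and 5.11% (35.6%, 18.2% and 19.5%). MCL1 was detected in 34.7%, 44.1% and 41.3% (73.5%, 80.8% and 81.6%), BCL2L1 in 28.3%, 32.2% and 26.2% (68.8%, 68.7% and 65.6%). BID was the most widely detected member, in 54.6%, 60.1% and 61.6% of thinned cells (88.0%, 85.8% and 85.8%). BAD was detected in 36.8%, 35.6% and 42.4% (80.0%, 71.7% and 76.7%). The order of the libraries was the same unthinned and at each depth of thinning (2500, 5000 and 10000 UMIs) for BAX and BAK1. For BCL2L11 and PMAIP1 DMSO was highest at every depth, and the order of RAC1i and Combo differed between depths. For the other members the order was not the same at all depths and unthinned, and their unthinned shares are not read as differences. For BAD the RAC1i share lay below DMSO while its CPM lay above, and no order is read from it.

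BBC3 was found in 1.96%, 2.5% and 2.80% of thinned cells (9.63%, 9.40% and 11.6% unthinned) and BCL2 in 0.416%, 0.511% and 0.476% (2.08%, 2.12% and 1.93%). For comparison, the collagen gene COL1A1, a fibroblast marker, was found in 2.77%, 3.35% and 2.83% of the same cells, VWF in 0.253%, 0.239% and 0.163%, and HBB, CD3E and LUM in 0 of them. COL1A1 had the highest share of the 15 markers of other cell types, and HBA1 in Combo was next at 1.16%. The BBC3 shares lay below those of COL1A1 and above those of the other 14 markers, and at 10000 UMIs BBC3 in Combo was at 5.22% against 5.00% for COL1A1. No difference between libraries is read from the BBC3 or BCL2 shares. Those of BCL2 lay below COL1A1 in every library and within the range of the 15 markers. Whether the COL1A1 UMIs are background or come from the OVCAR3 cells was not tested. By the limit of 3 cells of the total, a count of 0 allows a share of up to 0.0446% in DMSO, 0.0326% in RAC1i and 0.0408% in Combo, by counting error alone. The 95% Clopper-Pearson upper limits are 0.0548%, 0.0401% and 0.0501%.

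**Figure D3:**
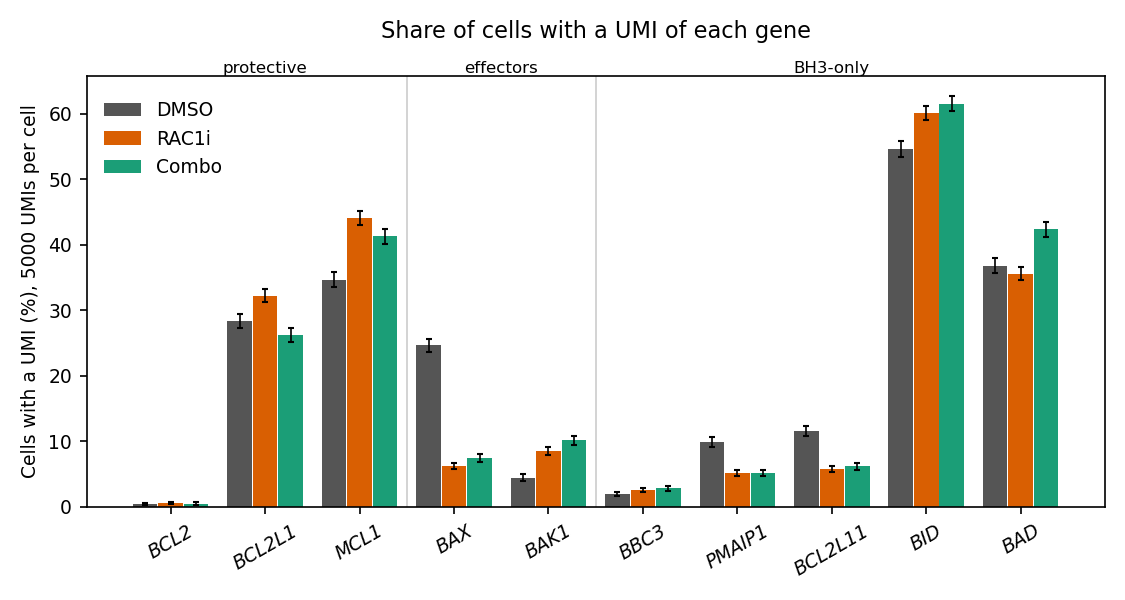
Percentage of cells with at least 1 UMI of each member after every cell was thinned to 5000 UMIs (6725 DMSO, 9200 RAC1i and 7354 Combo cells), with 95% Clopper-Pearson intervals that cover counting error only. BAX was detected in 24.6% of DMSO cells and in 6.17% and 7.49% of treated cells, and BAK1 in 4.43%, 8.53% and 10.1%.

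Per cell, a thinned UMI of at least 1 effector was found in 27.9% of DMSO cells (26.8 to 29.0), 14.2% of RAC1i cells (13.5 to 15.0) and 16.6% of Combo cells (15.7 to 17.4). A guardian UMI was found in 53.5%, 62.6% and 57.2%, and a BH3-only UMI in 77.5%, 77.2% and 80.8%. Cells with an effector UMI and no guardian UMI made up 13.0% (12.2 to 13.8), 5.35% (4.90 to 5.83) and 7.04% (6.47 to 7.65). These joint shares follow in part from the separate effector and guardian shares. They were not compared with those that independent detection would give, so no class of cells is read from them. Cells with no UMI of any member made up 7.24%, 7.39% and 6.76%. At this depth a 0 does not show that a gene is silent. The variance over the mean of thinned UMIs per cell, which is 1 for Poisson counts, was 1.14, 1.18 and 1.17 for MCL1 and 1.09, 1.25 and 1.21 for PMAIP1.

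The differences depended on the depth of the cell. The kept cells were put in 4 bands of UMIs, below 5000, 5000 to 15000, 15000 to 30000 and above 30000, and each member was summed in each band. BAX was lower than in DMSO in all bands, from 0.123 times (0.0806 to 0.181) in the shallowest RAC1i cells to 0.243 times (0.231 to 0.255) in the deepest. BAK1 in RAC1i was above DMSO in the deeper 3 bands, at 1.58, 2.09 and 2.5 times. In the shallowest band it was at 0.632 times, with an interval of 0.359 to 1.10 that includes 1.

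The PMAIP1 ratio to DMSO lay on opposite sides of 1 in shallow and deeper cells. In RAC1i cells above 5000 UMIs it was at 0.527, 0.539 and 0.530 times the DMSO level, while in cells below 5000 UMIs it was at 2.13 times (1.51 to 3.05). The shallow cells were at 17.3 CPM in DMSO, 36.8 in RAC1i and 35.1 in Combo. BCL2L11 went from 0.388 times in the deepest RAC1i cells to 1.34 times in the shallowest, with an interval of 0.902 to 2.00 that includes 1, and in the shallowest Combo cells it was at 1.86 times (1.27 to 2.74). BBC3 in RAC1i was at 3.31 times DMSO (1.69 to 7.09) below 5000 UMIs, 1.68 times (1.23 to 2.33) at 5000 to 15000, 1.21 times (1.02 to 1.44) at 15000 to 30000 and 0.898 times (0.790 to 1.02) above. In Combo its ratios in the same bands were 3.96 (2.03 to 8.47), 2.15 (1.56 to 3.02), 1.56 (1.30 to 1.86) and 1.02 (0.906 to 1.15). BID and BAD went the other way, at 0.613 (0.535 to 0.701) and 0.524 times (0.439 to 0.625) in the shallowest RAC1i cells. At 5000 to 15000 UMIs BAD in RAC1i was at 0.681 times (0.637 to 0.729). BAD in Combo was at 0.465 times (0.383 to 0.563) below 5000 UMIs and 0.809 times (0.753 to 0.870) at 5000 to 15000. It was at 1.23 (1.18 to 1.28) and 1.45 times (1.42 to 1.48) in the deeper bands.

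MCL1 was close to DMSO in deep RAC1i cells, at 1.16 times (1.13 to 1.19), and far above it in shallow ones, at 4.64 times (3.81 to 5.69), or 43.3 CPM in DMSO, 201 in RAC1i and 224 in Combo. Within RAC1i, shallow cells held 1.68 times the MCL1 level of deeper cells (1.55 to 1.81), 3.30 times that of PMAIP1 (2.73 to 3.95) and 3.04 times that of BBC3 (2.20 to 4.09). The same ratios within Combo were 2.09 (1.93 to 2.25), 3.15 (2.56 to 3.83) and 3.19 (2.33 to 4.27). In DMSO they were 0.443 (0.367 to 0.531), 0.809 (0.594 to 1.08) and 1.00 (0.499 to 1.81). BAK1 went the opposite way, at 0.350 (0.226 to 0.517) in RAC1i, 0.305 (0.193 to 0.459) in Combo and 1.24 (0.843 to 1.75) in DMSO. The scarce BCL2 was at 6.04 (3.51 to 9.79, from 18 shallow UMIs) in RAC1i, 2.75 (0.994 to 6.12, from 6) in Combo and 0.902 (0.108 to 3.31, from 2) in DMSO. Its RAC1i ratio to DMSO was 7.28 (1.74 to 64.7) in the shallowest band and 0.701 (0.520 to 0.941) in the deepest. Mitochondrial shares moved with these bands. The median was 1.12% in shallow DMSO cells against 6.33% and 7.02% in shallow RAC1i and Combo cells, while above 30000 UMIs it was 5.76% in DMSO against 1.25% and 1.26% in RAC1i and Combo. The part of cell quality in the depth pattern was not tested.

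**Figure D4:**
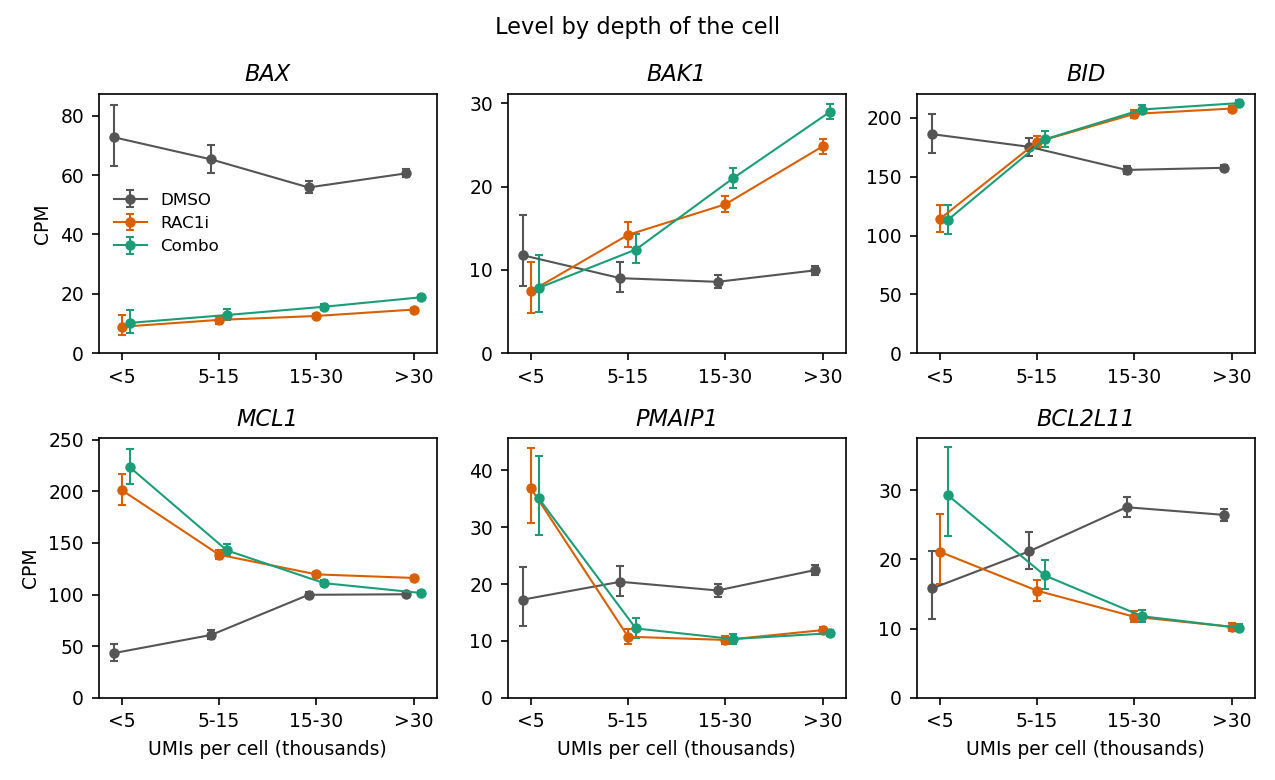
CPM of BAX, BAK1, BID, MCL1, PMAIP1 and BCL2L11 in kept cells by band of UMIs per cell for the DMSO, RAC1i and Combo libraries, with exact 95% Poisson intervals that cover counting error only. PMAIP1 is below DMSO in the treated libraries above 5000 UMIs and above it in the shallowest band, while BAX is below DMSO in every band.

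Within a library, cells scored as G2/M were compared with cells scored as G1, in cells with at least 5000 UMIs. The ratio lay between 0.791 and 1.26 for the 9 members other than BCL2. Between 34.1% and 42.3% of cells lay within 0.05 of a cut, so the classes are ranges of a score. Among cells scored as G1, 1565 of 2378 in DMSO, 1180 of 1406 in RAC1i and 1493 of 2014 in Combo lay that close. BCL2, which is scarce, was at 1.76 (1.16 to 2.72), 1.21 (0.779 to 1.95) and 1.38 (0.917 to 2.13) times the G1 level in G2/M cells of the 3 libraries. PMAIP1 was at 1.26 (1.17 to 1.35), 1.14 (1.01 to 1.29) and 1.13 (1.03 to 1.25) times the G1 level in G2/M cells of DMSO, RAC1i and Combo. BCL2L1 was at 0.892 (0.860 to 0.925), 0.967 (0.929 to 1.01) and 0.901 (0.868 to 0.936). BBC3 was lower in G2/M cells of DMSO (0.791, 0.678 to 0.925), while its intervals in both treated libraries include 1. BAX was at 1.11 (1.06 to 1.15) in DMSO, and its intervals in RAC1i and Combo include 1. The calls themselves differed between libraries (48.1%, 82.4% and 70.3% G2/M), so no comparison between libraries was made by phase, other than a setting of G1 cells alone that kept BAX, BAK1, PMAIP1 and BCL2L11 past the 1.5-fold limit.

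Other genes of the pathway were counted from 6 lists, beside 24.1% of all genes higher and 41.3% lower in RAC1i over DMSO. No test compared a list with other genes, and the counts are not read as particular to a list. Of 13 further BCL2 family genes, 10 passed the minimum in RAC1i over DMSO, 4 higher (BCL2L15, BIK, HRK and BMF) and 3 lower (BOK, BNIP3L and BCL2L2), with a median log2 ratio of 0.28. The BH3-only gene BIK was at 1.86, 4.34 and 7.81 CPM, a ratio to DMSO of 2.33 (2.07 to 2.64) in RAC1i and 4.20 (3.75 to 4.71) in Combo. HRK, another BH3-only gene, was at 10.7, 19.8 and 22.8 CPM. BOK, an effector-like gene, was at 5.47, 0.455 and 0.418 CPM, or 0.0833 times DMSO in RAC1i (0.0677 to 0.102). BNIP3L, a receptor for mitophagy, was at 83.6, 33.0 and 39.4 CPM. BCL2L15 was at 0.201, 1.41 and 0.935 CPM.

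Of 10 genes listed under outer membrane channels and apoptosome, 3 were higher in RAC1i (CYCS, DIABLO and VDAC2) and 3 lower (ENDOG, VDAC3 and AIFM1). CYCS, which encodes cytochrome c, was at 280, 606 and 547 CPM. DIABLO, whose product blocks inhibitors of caspases, was at 1.61, 3.53 and 3.85 CPM, and ENDOG, a mitochondrial nuclease, at 54.5, 15.9 and 21.3 CPM. Of 11 caspases and their nuclease genes, 1 was higher and 7 were lower in RAC1i, where 24.1% and 41.3% of all genes were, with a median of −1.04 beside −0.29 for all genes. The higher one was CASP9, the caspase of the apoptosome, at 10.2, 16.1 and 17.9 CPM. The executioner CASP6 was at 44.4, 11.6 and 14.6 CPM, and DFFA, the inhibitor of the nuclease that cuts DNA in apoptosis, at 139, 45.7 and 46.7 CPM. Its partner DFFB was at 6.99, 3.39 and 3.47 CPM. The inflammatory caspases CASP1 and CASP4 were at 2.77, 0.221 and 0.122 CPM and at 15.3, 1.96 and 1.79 CPM, and CASP10 was at 4.08, 0.609 and 0.531 CPM.

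Of 6 inhibitors of apoptosis, 2 were higher (BIRC3 and BIRC5) and 0 lower in RAC1i. BIRC3 was at 0.588, 4.29 and 3.66 CPM, a ratio of 7.29 (6.02 to 8.91) and 6.22 (5.12 to 7.62), and XIAP, the most direct inhibitor of caspases, at 61.1, 46.7 and 43.3 CPM. BIRC5 is also one of the genes of the G2/M score. Of 10 death receptor genes, 1 was higher and 6 were lower, beside the same 24.1% and 41.3% of all genes, with a median of −0.76. TNFRSF10B, the TRAIL receptor DR5, was the higher one at 22.7, 55.1 and 44.4 CPM, while its ligand TNFSF10 was at 10.9, 3.47 and 2.71 CPM. The adaptor FADD was at 0.408 and 0.430 times its DMSO level in RAC1i and Combo, the adaptor TRADD at 26.9, 3.42 and 3.88 CPM, and the receptor TNFRSF1A at 41.9, 19.1 and 19.4 CPM.

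Of 17 regulators of the BH3-only genes and MCL1, 6 were higher in RAC1i (ATF4, DDIT3, PPP1R15A, FOXO1, FBXW7 and YWHAE) and 2 were lower (E2F1 and HUWE1). ATF4, a transcription factor of the integrated stress response, was at 160 CPM in DMSO, 797 in RAC1i and 775 in Combo. DDIT3, which encodes the ATF4 target CHOP, was at 47.0, 351 and 330 CPM, and PPP1R15A, a phosphatase subunit of the same response, at 18.9, 183 and 177 CPM. FOXO1 was at 7.41, 18.1 and 15.6 CPM and E2F1, a factor of cell cycle entry, at 52.5, 14.7 and 17.6 CPM. In Combo over DMSO, where 22.8% of all genes were higher and 40.1% lower, the counts of higher and lower genes were 3 and 3 of 9, 3 and 2 of 10, 1 and 6 of 11, 3 and 0 of 6, 1 and 7 of 10, and 6 and 3 of 17 for the lists in the order given. In Combo over RAC1i, BIK was the only list gene higher past 1.5-fold and BCL2L15 the only one lower.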

How the data were processed

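Single-cell RNA-seq of OVCAR3 cells was used for 3 libraries, DMSO, RAC1i and Combo, grouped by their GEO labels. For each gene and cell barcode the authors deposited raw UMI counts, made with Cell Ranger 4.0.0 on GRCh38 per the labels and the methods, without normalization. Concentrations are from the methods.

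A cell was kept if it had over 1000 genes, no more than 20% mitochondrial UMIs and a complexity above 0.8. Levels are CPM, the summed UMIs of a gene over those of all genes in kept cells. The 95% intervals (scipy 1.17.1) are Poisson for levels, conditional on the sum of both counts for ratios, and Clopper-Pearson for shares, and express counting error alone. With 1 library per condition no test was run and no p-value is given. A gene counted as higher or lower at 1.5-fold or more if the higher level was at least 1 CPM. Cells were thinned to 5000 UMIs for shares and for S and G2/M scores (scanpy 1.11.5). No doublet caller was run. For barcodes over 20% mitochondrial UMIs, levels are per 1e6 UMIs that are not mitochondrial.

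The 10 members and all lists were chosen with earlier results of these data known. The genes named are the members, RAC1 and EZH2, and from each list the largest rise and fall in each comparison with DMSO and every gene past 2-fold. BMF, BCL2L2, VDAC2, VDAC3, AIFM1, BIRC5, HUWE1, FBXW7 and YWHAE fall outside this rule and were named after their values were seen. Genes were placed with GENCODE 44, which held 36366 of 36601 identifiers (99.36%), and 9 of 10 members had a RefSeq promoter. Genes on the opposite strand overlap BCL2, BCL2L1, MCL1, BCL2L11 and BAD, and the methods give the settings of Cell Ranger as default, which count reads on the sense strand of a gene. The alternatives were other cell limits, other scalings (TMM from edgeR 4.0.16, DESeq2 1.42.0 size factors, or totals that leave out mitochondrial genes), a mean of the CPM of single cells, a minimum of 10 CPM for lists, guardians without MCL1, thinning to 2500 or 10000 UMIs and, chosen after seeing the data, cells with at least 5000 UMIs. The calculations were tested on simulated data.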

Additional observations from a re-analysis of the deposited data

Results flagged for a closer look

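Barcodes with over 20% mitochondrial UMIs, which the cell filter removes, held more PMAIP1 and MCL1 in both treated libraries than the barcodes removed by the same limit in DMSO. They numbered 1592 in DMSO, 534 in RAC1i and 508 in Combo, with a median of 2973, 1314 and 1580 UMIs. PMAIP1 was at 26.3 per 1e6 UMIs that are not mitochondrial in DMSO (95% interval 20.6 to 33.0, from 73 UMIs), 94.1 in RAC1i (70.3 to 123, from 52 UMIs) and 57.6 in Combo (39.9 to 80.5, from 34 UMIs). That was 1.16 (0.906 to 1.46), 8.0 (5.96 to 10.5) and 4.93 (3.41 to 6.91) times the level of kept cells of the same library. MCL1 was at 139 (126 to 154), 253 (213 to 299) and 297 (254 to 344) per 1e6, or 1.35 (1.21 to 1.49), 2.06 (1.73 to 2.43) and 2.68 (2.30 to 3.11) times the level of kept cells. The kept cells were mostly far deeper than these barcodes. In kept cells below 5000 UMIs PMAIP1 was at 17.3, 36.8 and 35.1 CPM in DMSO, RAC1i and Combo. MCL1 was at 43.3, 201 and 224 CPM there. These CPM include mitochondrial UMIs in the total. The part of depth in the ratios to kept cells was not tested. Only members whose lower limit in a treated library lay above the upper limit in DMSO were flagged. BAX was at 41.7 (34.5 to 50.0) per 1e6 in DMSO, 10.9 (3.98 to 23.6) in RAC1i and 8.47 (2.75 to 19.8) in Combo. BAK1, above DMSO in treated kept cells, was here at 15.1 (10.9 to 20.4), 10.9 (3.98 to 23.6) and 1.69 (0.0429 to 9.44, from 1 UMI). The intervals of BCL2L1 in Combo and BAD in RAC1i also lay below those of DMSO. The state of the cells behind these barcodes was not measured. In each group of barcodes BID (0.592, 0.545 and 0.393 times) and BAD (0.677, 0.361 and 0.316 times) were below kept cells, while BCL2L11 was above them (1.88, 3.09 and 2.78 times).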

How the results depend on the processing

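BAX, BAK1 and BCL2L11 kept their direction and stayed past 1.5-fold against DMSO under all 10 alternative settings. In RAC1i over DMSO the log2 ratio ran from −2.29 to −1.83 for BAX, 0.89 to 1.26 for BAK1 and −1.26 to −0.78 for BCL2L11. PMAIP1 ran from −0.95 to −0.53 and missed the limit only under the mean over cells of CPM, in both comparisons with DMSO. That setting brought BCL2 to the minimum and gave 4 of 10 members higher in RAC1i over DMSO (BCL2, MCL1, BAK1 and BBC3), where 29.0% of all genes were, and 2 of 10 in Combo over DMSO (BAK1 and BBC3), where 28.5% were, against 1 of 9 in each. It gave 2 of 10 lower in each (37.0% and 35.4% of all genes). In RAC1i over DMSO BCL2 also reached the minimum at 2% to 5% mitochondrial UMIs, at 10000 to 40000 UMIs and under DESeq2 size factors. Under each of those settings 1 of 10 members was higher. For Combo over RAC1i the 2 list genes past the fold became 0 at a minimum of 10 CPM and 1 under TMM. The effectors over guardians (0.410, 0.164 and 0.244 in DMSO, RAC1i and Combo) became 0.457, 0.180 and 0.25 at 2% to 5% mitochondrial UMIs, 0.398, 0.158 and 0.228 at 10000 to 40000 UMIs, 0.374, 0.169 and 0.253 in G1 cells, 0.462, 0.140 and 0.188 as a mean over cells, and 0.965, 0.383 and 0.637 without MCL1. A mitochondrial limit of 10% gave 0.420 in DMSO. The cause of these shifts was not tested. No paired analysis was possible because each condition is 1 library with no replicate number, and no library could be left out.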
